A study of Mus musculus with 19 samples.

Results

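The mRNA levels of 10 iron and heme handling genes were followed in circulating leukocytes of DBA/2 and B6 mice after CAWS administration. The genes are Hmox1, Hp, Hpx and Cd163, which handle heme and hemoglobin, and Slc40a1, Slc11a1, Tfrc, Trf, Fth1 and Hamp, which handle iron. They were chosen by gene name, and all probes of each gene on the array were taken. The scanner output named 8 of the 10 genes as here, and Hpx and Hamp were matched by their accession because that output lists them as Hpxn and Hamp1. Each gene had 1 probe, so that the set holds 10 of the 41174 probes on the array, and all 10 could be tested. CAWS, a water-soluble mannoprotein-glucan fraction of Candida albicans that induces vasculitis in mice, was injected intraperitoneally at 1 mg per mouse on 5 consecutive days into male mice of 5 to 14 weeks of age, and 0 w denotes the time right after the last injection, so that the 0 w groups had received CAWS too. The groups were DBA/2 mice, in which the vasculitis is often fatal, taken at 0 w or after 2, 4, 8 or 9 weeks, with 2 RNA samples each, and B6 mice, in which it is milder, with 2 samples at 0 w, 4 w and 8 w and 1 sample at 2 w and at 9 w. Only mice that survived to a time point could be sampled there. No untreated mice are among the samples analysed here.

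Heme set free from red cells is bound in plasma by hemopexin (Hpx), and free hemoglobin is bound by haptoglobin (Hp), whose complex is taken up by macrophages through Cd163. Heme oxygenase 1 (Hmox1) opens the heme ring and releases iron, which is stored in ferritin, of which Fth1 encodes the heavy chain, or leaves the cell through ferroportin (Slc40a1), the known iron exporter. Transferrin (Trf) carries iron in plasma, the transferrin receptor (Tfrc) brings it into cells, Slc11a1 (Nramp1) moves metal ions out of the phagosome of phagocytes, and hepcidin (Hamp), a liver hormone, causes ferroportin to be degraded. Hpx, Hamp and much of plasma Trf and Hp are made by hepatocytes, and inflammation is known to raise Hp, Hpx and Hamp and to lower Trf in the liver.

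The arrays measured RNA of whole-blood leukocytes, isolated with the LeukoLOCK system. Levels are given as log2 of the processed signal minus the 75th percentile of its array, called the normalized log2 signal, and a signal was detected where the scanning software called it well above background. On the 19 arrays, from 33.9% to 51.4% of spots were detected. Differences were fitted with limma over the 22939 probes detected in at least 2 of the 18 samples, and were called where the Benjamini-Hochberg adjusted p over all of them was under 0.05. With at most 2 samples in a group, the number of arrays limits the precision. The study used 3 mice per time point and hybridized RNA of individual mice, and the labels call the 2 samples of a group biological replicates. The p values measure the spread between these samples only. The SD of the log2 difference between the samples of a group was 0.203 to 0.263 in B6 mice and 0.316 to 0.413 in DBA/2 mice, against 0.237 between the 2 arrays of a single B6 0 w RNA. The DBA/2 arrays of 0 w, 2 w, 4 w and 8 w with the same replicate number shared a slide, and each comparison within them is also given with the replicate number as a block where that changes a call, whereas no slide held both strains at 4 w, so that slide and strain cannot be told apart there. Nor did any slide hold DBA/2 samples of both 0 w and 9 w, so that slide and week cannot be told apart at 9 w. The RNA held much red cell message beside that of leukocytes: all 10 erythroid genes were detected on at least 1 array of every group, and the signal of Hba-a1, an alpha globin gene, was saturated on 13 arrays. At 4 w, 2 of 8 T cell genes were lower than at 0 w in DBA/2 mice and 4 in B6 mice, and 3 of 6 B cell genes were lower in each strain. All 6 NK cell genes were lower in B6 mice at 4 w, while 5 of the 6 were higher in DBA/2 mice, and 5 of 6 platelet genes were higher in each strain.

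The promoters of the hepatic genes Hamp and Hpx are shown because their mRNAs were detected in the same 2 groups. The sequences are the 250 bases before the RefSeq start site on GRCm38.p6, from the minus strand, at chr7:30944030-30944279 for Hamp and chr7:105600117-105600366 for Hpx. Capitals mark matches, on either strand, to the BMP response element core (GGCGCC), to the STAT site (TTCNNNGAA) and to the TATA box core (TATAA), which do not overlap here.
Hamp: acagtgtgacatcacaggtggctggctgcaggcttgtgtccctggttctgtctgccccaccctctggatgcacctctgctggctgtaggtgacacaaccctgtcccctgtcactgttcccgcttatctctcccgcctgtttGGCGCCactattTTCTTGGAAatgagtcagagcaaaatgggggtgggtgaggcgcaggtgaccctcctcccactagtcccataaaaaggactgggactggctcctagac
Hpx: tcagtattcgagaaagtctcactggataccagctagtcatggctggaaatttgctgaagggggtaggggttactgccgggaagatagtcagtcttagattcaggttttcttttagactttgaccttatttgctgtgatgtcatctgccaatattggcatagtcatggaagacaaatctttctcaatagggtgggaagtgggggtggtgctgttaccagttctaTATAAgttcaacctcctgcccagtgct
The Hamp sequence held 1 match to the BMP response element core and 1 to the STAT site, which begin 109 and 97 bases before the start site. Both elements are known from work on hepcidin, where the first answers to iron stores through BMP signals and the other to interleukin 6. The Hpx sequence held 1 match to the TATA box core, 27 bases before its start. Among the 32851 RefSeq promoters of the same length, 9.59% held the BMP response element core, 7.02% the STAT site and 22.8% the TATA box core. A match describes the letters in this window only.

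In DBA/2 mice Hmox1, Hp, Slc40a1 and Slc11a1, genes of heme breakdown, hemoglobin binding, iron export and phagosomal metal transport, were higher than at 0 w in every later week, and all 4 were higher in B6 mice at 8 w. Of the 10 genes, 4 were higher than at 0 w at 2 w (Hmox1, Slc40a1, Slc11a1 and Hp) and 0 were lower, where 7.90% of all probes tested were higher and 7.82% lower. At 4 w, 6 were higher, the same 4 with Trf and Cd163, and 1, Tfrc, was lower, where 7.58% of probes were higher and 7.24% lower. At 8 w the same 6 were higher and 0 lower, against 10% and 14% of probes, and at 9 w, 7 were higher and 1 lower, against 13.4% and 14.3%. The 8 w and 9 w counts include Cd163, for which no change is given in these weeks. Its signal passed the detection call in only 1 DBA/2 sample of 8 w, and in none of 0 w or 9 w. The DBA/2 samples of 9 w lay on other slides than those of 0 w. The median log2 difference of the 10 genes was 0.48, 1.34, 1.5 and 1.14 in these 4 weeks, and that of all probes tested was -0.05, -0.10, -0.18 and -0.03. With the replicate number as a block, 5 genes were called at 2 w, Trf being added (adjusted p = 0.0392), and with the slide as a random block Fth1 was added too (adjusted p = 0.0230). These weeks share the 0 w samples, so that they are not independent of each other. The share of higher probes among all those called depended on the scaling. It was 50.3%, 51.1% and 41.8% in weeks 2, 4 and 8 as given, and 71.0%, 68.7% and 62.6% with the 75th percentile over all probes, and at 8 w it was 53.7% after quantile normalization.

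**Figure D1:**
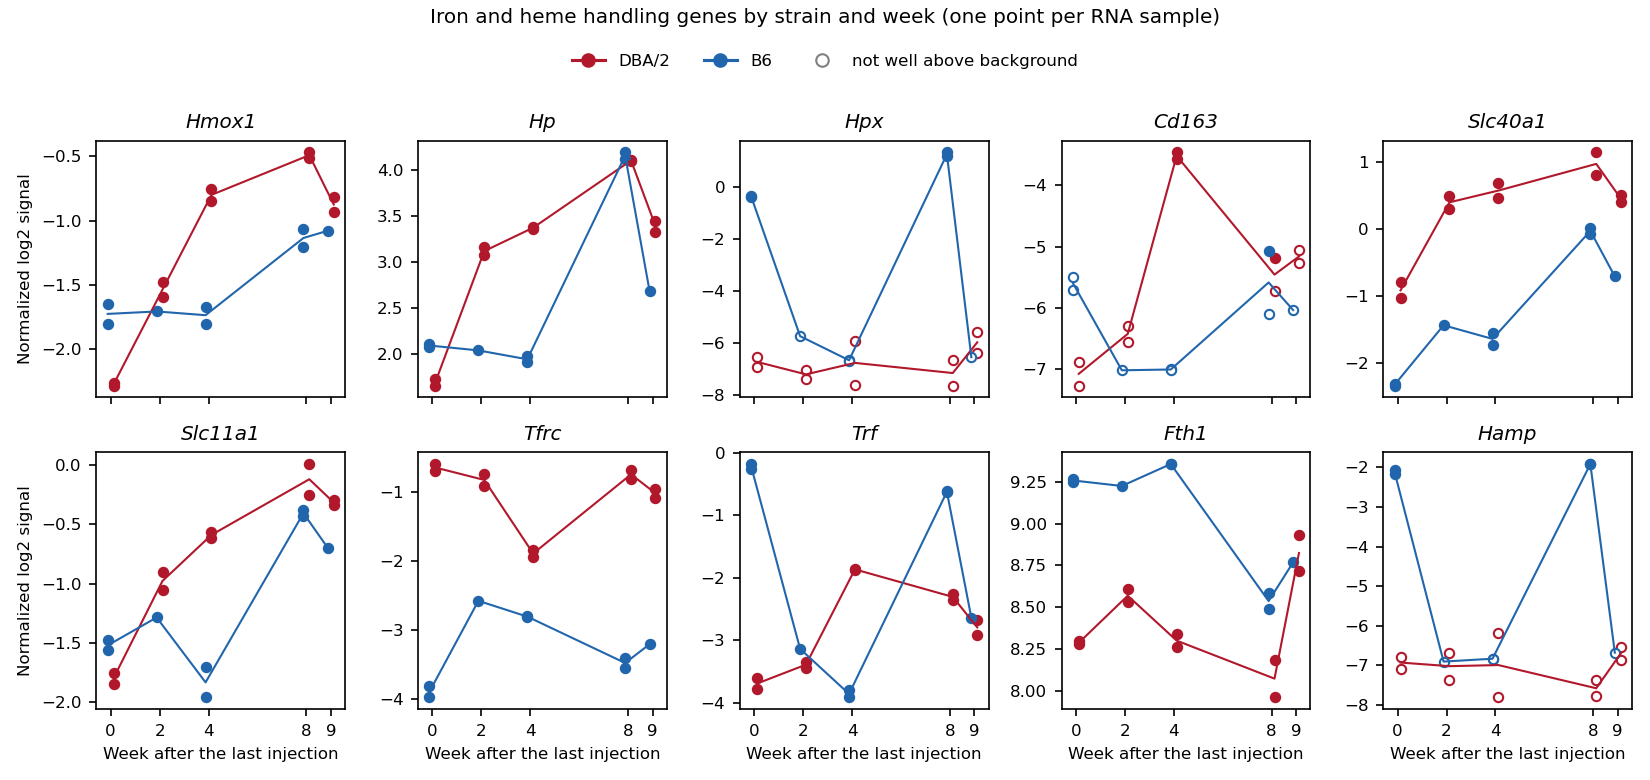
Normalized log2 signal (vertical axis, own scale per gene) of the 10 genes against the week after the last injection, with 1 point per RNA sample and lines through the group means, where open points were not well above background. Hmox1, Hp, Slc40a1 and Slc11a1 climbed in DBA/2 mice from 0 w, and Hpx and Hamp were detected in B6 mice at 0 w and 8 w only.

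Hmox1 gave normalized log2 signals of -2.27 and -2.29 in the DBA/2 samples at 0 w, -1.48 and -1.60 at 2 w, -0.76 and -0.84 at 4 w, -0.47 and -0.51 at 8 w and -0.94 and -0.81 at 9 w. In B6 mice it gave -1.80 and -1.65 at 0 w, -1.71 at 2 w, -1.80 and -1.67 at 4 w, -1.21 and -1.06 at 8 w and -1.08 at 9 w. The DBA/2 samples were thus the lowest of all at 0 w and, with no overlap, above the B6 samples at 4 w and 8 w. Relative to 0 w, Hmox1 in DBA/2 mice was higher by 1.67-fold, 2.79-fold, 3.45-fold and 2.64-fold in the later weeks in order, with adjusted p values of 0.00112, 1.17e-05, 1.87e-06 and 1.49e-05. In B6 mice the log2 difference was -0.01 ± 0.10 (SE) at 4 w and 0.59 ± 0.10 at 8 w, with adjusted p values of 0.975 and 0.00202. The DBA/2 8 w level stood above that of every other group, and the next levels, the DBA/2 samples of 4 w and those of 9 w, overlapped. In bulk RNA, fewer cells of a type and less RNA per cell cannot be told apart.

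Hp is expressed in maturing neutrophils as well as in hepatocytes. It gave 1.73 and 1.65 in DBA/2 mice at 0 w, 3.17 and 3.08 at 2 w, 3.39 and 3.37 at 4 w, 4.11 and 4.11 at 8 w and 3.45 and 3.33 at 9 w. In B6 mice it gave 2.07 and 2.11 at 0 w, 2.04 at 2 w, 1.91 and 1.98 at 4 w, 4.12 and 4.2 at 8 w and 2.68 at 9 w. The highest samples in both strains were those of 8 w, where the means of B6 and DBA/2 mice lay 0.05 apart. Hp rose 3.22-fold at 4 w and 5.35-fold at 8 w in DBA/2 mice (adjusted p = 1.97e-06 and 1.09e-07), and 4.2-fold at 8 w in B6 mice (adjusted p = 2.84e-07). At 4 w in B6 mice its log2 difference was -0.15 ± 0.08 (adjusted p = 0.243).

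Slc40a1, the exporter, gave -0.80 and -1.04 in DBA/2 mice at 0 w, 0.49 and 0.30 at 2 w, 0.69 and 0.46 at 4 w, 1.15 and 0.80 at 8 w and 0.50 and 0.41 at 9 w. In B6 mice it gave -2.31 and -2.34 at 0 w, -1.44 at 2 w, -1.55 and -1.73 at 4 w, 0.02 and -0.07 at 8 w and -0.71 at 9 w. The DBA/2 samples lay above the B6 samples at every week, by 1.41 at 0 w, 2.22 at 4 w and 1.00 at 8 w between group means. Slc40a1 was 2.81-fold higher at 4 w and 3.71-fold at 8 w than at 0 w in DBA/2 mice (adjusted p = 0.000140 and 1.70e-05), and 1.61-fold and 4.92-fold higher in B6 mice (adjusted p = 0.0116 and 6.83e-06). The B6 4 w call was lost without B6 4 w replicate 1 (log2 difference 0.59, adjusted p = 0.0765) and without either B6 0 w replicate (0.70 and 0.67). Neighbors in the order of levels overlapped among the DBA/2 samples of weeks 2, 9 and 4.

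Slc11a1, the phagosomal metal transporter of macrophages and neutrophils, ranged from -1.84 in a DBA/2 0 w sample to 0.01 in a DBA/2 8 w sample within that strain, and from -1.96 at 4 w to -0.38 at 8 w in B6 mice. It was 1.77-fold, 2.31-fold, 3.2-fold and 2.79-fold higher than at 0 w in the later DBA/2 weeks in order, all past the threshold. In B6 mice its log2 difference was -0.31 ± 0.11 at 4 w and 1.11 ± 0.11 at 8 w, with adjusted p values of 0.103 and 0.000140. With the slide as a random block, the B6 4 w difference of -0.31 passed the threshold (adjusted p = 0.0261).

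Within each of the slides that held DBA/2 samples of 0 w and of 2 w, 4 w or 8 w, Hmox1, Hp, Slc40a1 and Slc11a1 were higher at the later week in 6 of 6 pairs. The pairs of a slide share its 0 w array and hold the samples tested above, so that they add no separate support. At 4 w the within-slide log2 differences were 1.51 and 1.45 for Hmox1, 1.66 and 1.71 for Hp, 1.49 and 1.5 for Slc40a1 and 1.19 and 1.23 for Slc11a1. Marker genes of myeloid cells moved with these 4 genes. Of 11 neutrophil genes tested, 9, 10, 11 and 10 were higher in the later DBA/2 weeks in order, and their summed level over 12 genes, of which Elane stayed at background on all arrays, went from 106 to 107 at 0 w to 335 to 360 at 4 w and 704 to 784 at 8 w. In B6 mice the neutrophil sum was 57.2 to 57.4 at 0 w, 140 to 150 at 4 w and 430 to 432 at 8 w, with 9 of 11 genes higher at 4 w, a week at which Hmox1, Hp and Slc11a1 were not called. Of 10 monocyte genes, 8 were higher in DBA/2 mice from 4 w on, and in B6 mice 2 were higher and 3 lower at 4 w and 7 higher at 8 w. The part of these cells in the differences was not tested.

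**Figure D2:**
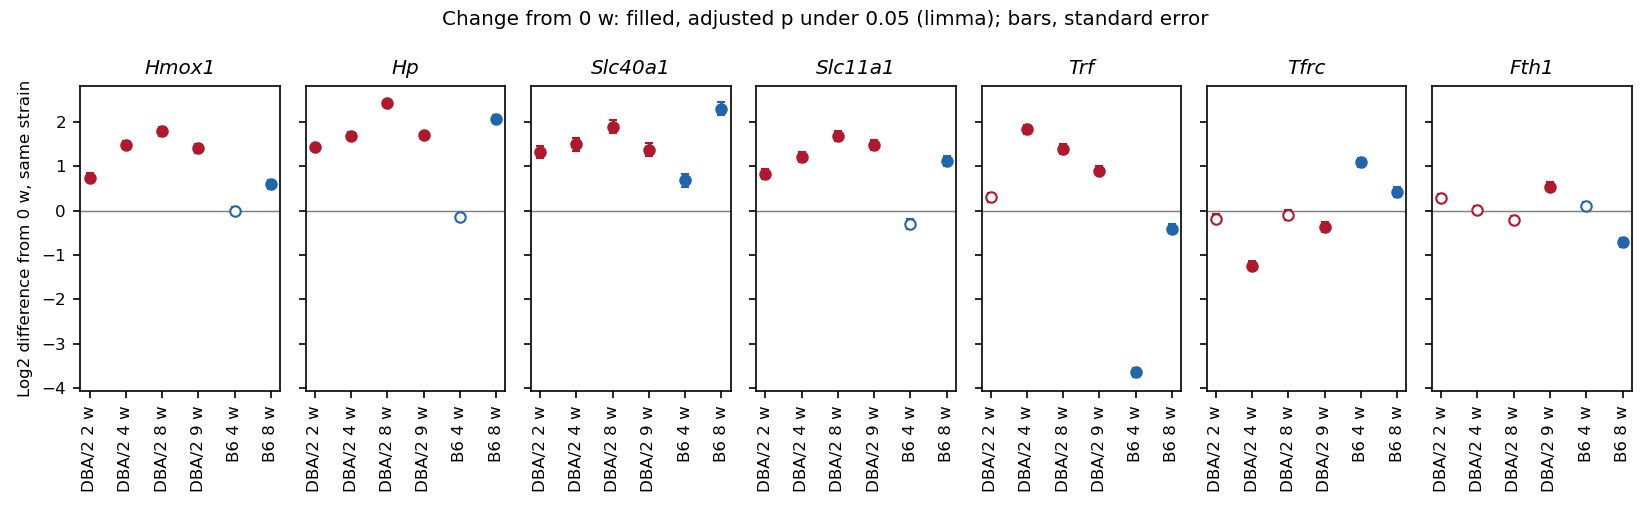
Log2 difference from 0 w of the same strain (vertical axis, with SE) for the 7 genes detected in every group, at each week with 2 samples, where filled points had an adjusted p under 0.05. Hmox1, Hp, Slc40a1 and Slc11a1 lie above 0 at all DBA/2 weeks, and Trf points in opposite directions in DBA/2 and B6 mice at 4 w.

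Cd163, the haptoglobin-hemoglobin receptor of macrophages, was detected on 4 arrays only, both of DBA/2 mice at 4 w, 1 of DBA/2 mice at 8 w and 1 of B6 mice at 8 w. Its signals in the DBA/2 4 w samples were -3.46 and -3.58, above those of every other sample, and in the DBA/2 8 w samples -5.19 and -5.72. Against the DBA/2 0 w samples, where it was not detected, Cd163 at 4 w was at least 2.53-fold higher (adjusted p = 6.84e-05), and against B6 mice at 4 w at least 2.37-fold (adjusted p = 2.20e-05). With normexp correction by local background both calls were lost, at log2 differences of 0.55 (adjusted p = 1.00) and -0.081 (adjusted p = 0.898), and with the array median background both were kept, at 0.76 and 0.23. A bound of this kind sets the mean of the detected group against the lowest detected signal on each array of the other, or the signal of the probe where that is higher. Of 8 macrophage genes tested, at 4 w 5 were higher and 0 lower in DBA/2 mice, while 5 were lower in B6 mice. In DBA/2 mice 5 were higher at 8 w and 6 at 9 w, with 0 lower, where Cd163 was detected on 1 and 0 arrays. In B6 mice at 8 w, 2 were higher and 3 lower. The summed level of 12 such genes was 4.41 to 5.32 in the DBA/2 4 w samples, against 2.11 to 3.14 at 0 w and 1.66 to 1.88 in B6 mice at 4 w, with Siglec1, Vcam1 and Axl at background on all arrays. It was 3.28 to 4.29 in the DBA/2 8 w samples. In B6 mice it was 3.18 to 3.44 at 0 w and 3.37 at 9 w, weeks at which Cd163 was not detected there. The part of macrophages in the Cd163 signal was not tested.

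Trf, transferrin, turned in opposite directions in the strains. It gave -3.60 and -3.79 in DBA/2 mice at 0 w, -3.34 and -3.44 at 2 w, -1.86 and -1.87 at 4 w, -2.35 and -2.26 at 8 w and -2.67 and -2.92 at 9 w. In B6 mice it gave -0.17 and -0.26 at 0 w, -3.14 at 2 w, -3.80 and -3.92 at 4 w, -0.63 and -0.61 at 8 w and -2.64 at 9 w. The B6 samples of 0 w and 8 w were the highest of all, and those of B6 mice at 4 w the lowest. In DBA/2 mice Trf exceeded its 0 w level 3.55-fold at 4 w, then 2.62-fold and 1.87-fold in the later samples of 8 w and 9 w (adjusted p = 5.49e-06, 1.55e-05 and 0.000252), and at 2 w its log2 difference was 0.30 ± 0.10 (adjusted p = 0.0828). The B6 level dropped by 3.64 on the log2 scale, which is 12.5-fold, from 0 w to 4 w (adjusted p = 5.45e-08). The B6 samples of 8 w lay 1.32-fold below those of 0 w (adjusted p = 0.0214). The 8 w call was lost on leaving out any of the B6 0 w or 8 w replicates, with log2 differences from -0.45 to -0.36.

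Hpx and Hamp were detected on 5 arrays each, all from B6 mice of 0 w or 8 w, and in no DBA/2 sample. In the B6 samples Hpx gave -0.39 and -0.35 at 0 w and 1.19 and 1.34 at 8 w, and Hamp -2.18 and -2.07 at 0 w and -1.92 and -1.91 at 8 w. At 4 w, where neither was detected, Hpx was at least 21.1-fold lower than at 0 w (adjusted p = 5.49e-05) and Hamp at least 6.24-fold lower (adjusted p = 0.000133). Both genes passed the filter only through the B6 samples of 0 w and 8 w, so that these p values lend no support of their own. At 8 w Hpx was 3.09-fold higher than at 0 w (log2 difference 1.63 ± 0.51, adjusted p = 0.0488), a call lost in 10 of the 16 fits that left out a replicate, among them all 4 without a B6 0 w or 8 w replicate. The log2 difference of Hamp was 0.21 ± 0.44 (adjusted p = 0.784). Neither gene was detected in the single B6 sample of 2 w or in that of 9 w.

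The hepatocyte genes followed the same 2 groups. Of 12 such genes, all 12 were detected on at least 1 array of both these B6 groups, and their summed level was 50.5 to 51.6 at 0 w and 29.9 to 30.9 at 8 w. In B6 mice at 4 w it was 1.68 to 1.74 with 8 genes at background on both arrays, and over the DBA/2 samples it ran from 1.04 to 2.57, with 6 to 8 genes at background. Of the 12, 11 were lower in B6 mice at 4 w than at 0 w, among them Alb, which encodes albumin. In DBA/2 mice at 4 w, 1 of the 12, Fabp1, was higher and 0 were lower, while Trf was 3.55-fold higher. Between the strains at 4 w, where Trf was higher in DBA/2 mice, 2 of the 12, Alb and Fabp1, were higher there as well and 0 were lower. In B6 mice at 8 w Hp was high beside both the hepatocyte and the neutrophil genes, and at 0 w it was low beside high hepatocyte and low neutrophil genes. The part of hepatocyte RNA in the levels of Trf, Hp, Hpx and Hamp was not tested.

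**Figure D3:**
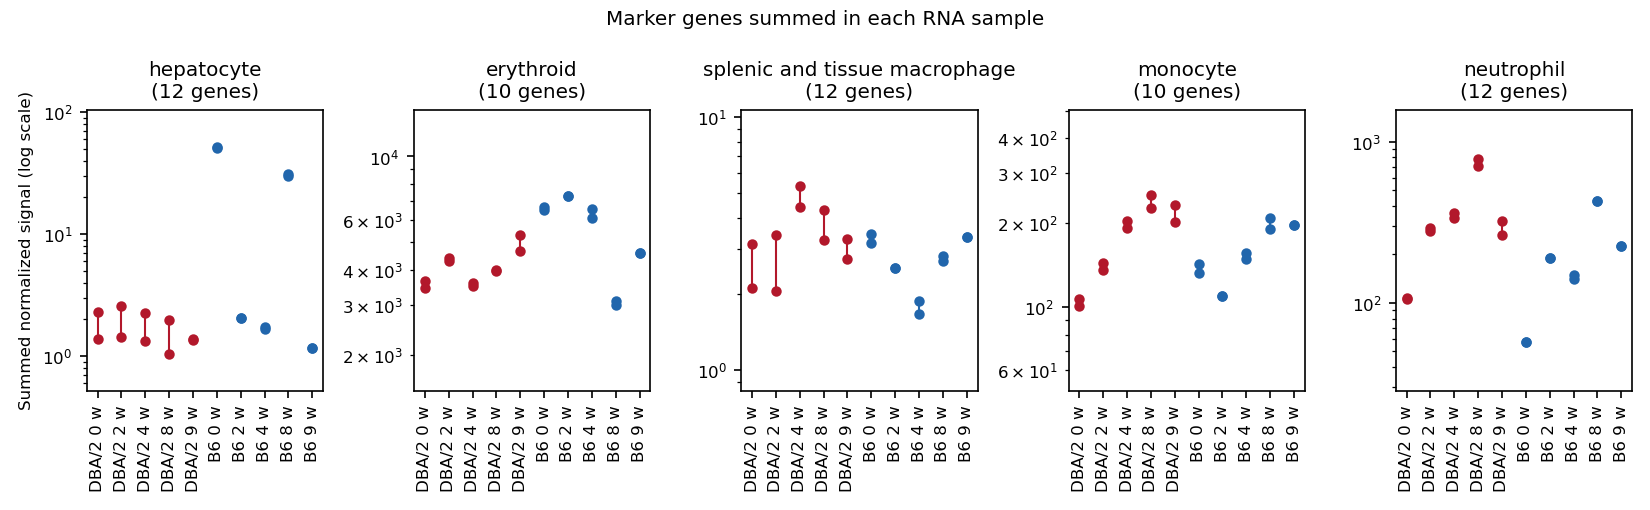
Summed normalized signal (log scale, own range per panel) of 5 lists of marker genes in each RNA sample, by group, with DBA/2 in red and B6 in blue and a line between the samples of a group. The hepatocyte genes stand out in B6 mice at 0 w and 8 w, and the neutrophil genes reach their highest sums at 8 w in both strains.

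In B6 mice, 2 of the 10 genes were higher at 4 w than at 0 w (Slc40a1 and Tfrc) and 4 lower (Trf, Hpx, Hamp and Cd163), where 6.02% of probes were higher and 9.66% lower. Cd163 was not detected on either side, and no fold is given. Hpx and Hamp entered this count only through their detection in B6 mice at 0 w and 8 w. At 8 w, 6 were higher (Hmox1, Slc40a1, Slc11a1, Tfrc, Hp and Hpx) and 2 lower (Trf and Fth1), where 11% of probes were higher and 10.2% lower. The median log2 difference of the 10 genes was -0.23 at 4 w and 0.50 at 8 w, and that of all probes tested -0.03 and -0.04. Of all probes called at 4 w, 38.4% were higher, and 59.8% with the 75th percentile over all probes.

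Tfrc, which imports transferrin-bound iron and is abundant in young red cells and dividing lymphocytes, was higher in DBA/2 than in B6 mice at every week. The DBA/2 samples gave -0.59 and -0.70 at 0 w, -0.74 and -0.91 at 2 w, -1.84 and -1.94 at 4 w, -0.68 and -0.81 at 8 w and -0.95 and -1.08 at 9 w. The B6 samples gave -3.81 and -3.97 at 0 w, -2.57 at 2 w, -2.80 and -2.80 at 4 w, -3.40 and -3.54 at 8 w and -3.20 at 9 w. All DBA/2 samples lay above all B6 samples, and the log2 gap between group means went from 3.24 at 0 w to 0.91 at 4 w and 2.73 by 8 w. Tfrc fell by 1.24 at 4 w in DBA/2 mice, 2.37-fold (adjusted p = 5.76e-05), and its log2 differences at 2 w and 8 w were -0.18 ± 0.10 and -0.10 ± 0.10 (adjusted p = 0.317 and 0.564). The fall of 0.37 at 9 w (adjusted p = 0.0247) was lost without either DBA/2 0 w replicate and without DBA/2 9 w replicate 2. In B6 mice Tfrc rose 2.12-fold at 4 w (adjusted p = 0.000155). At 8 w its log2 difference there was 0.42 (adjusted p = 0.0189), but normexp background correction with the median background of each array turned it to -0.37, and the call was lost without B6 0 w replicate 2 or B6 8 w replicate 1. At 4 w, 3 of 10 erythroid genes were lower and 0 higher in DBA/2 mice, while 4 were higher and 0 lower in B6 mice. Elsewhere they went the other way from Tfrc. In DBA/2 mice at 9 w, 7 were higher and 0 lower, and in B6 mice at 8 w, 8 were lower and 0 higher. Between the strains at 4 w, 9 were lower and 1 higher in DBA/2 mice. In DBA/2 mice at 2 w and 8 w, where Tfrc was not called, 4 and 3 were higher. The part of young red cells in the Tfrc levels was not tested.

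Fth1, the ferritin heavy chain, gave processed signals from 103400 to 206200 units over the samples and was not saturated on any array. Its normalized log2 signals were 8.28 and 8.30 in DBA/2 mice at 0 w, 8.34 and 8.26 at 4 w and 8.19 and 7.96 at 8 w, and 9.26 and 9.25, 9.36 and 9.35, and 8.49 and 8.59 in B6 mice at those weeks. In DBA/2 mice the log2 difference was 0.01 ± 0.10 at 4 w and -0.21 ± 0.10 at 8 w (adjusted p = 0.969 and 0.163). It was called 1.45-fold higher at 9 w in DBA/2 mice (adjusted p = 0.00353) and 1.65-fold lower at 8 w in B6 mice (adjusted p = 0.000832), but after quantile normalization both differences changed sign, to -0.28 and 0.19, and were not called. Of 10 erythroid genes, 7 were higher in DBA/2 mice at 9 w and 8 were lower in B6 mice at 8 w, and Ftl1, the ferritin light chain, which was chosen after its values were seen, differed by 0.64 and -0.94.

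At 4 w, 7 of the 10 genes were higher in DBA/2 than in B6 mice and 1, Fth1, was lower, where 19.1% of probes were higher and 13% lower. Cd163, not detected in B6 mice at 4 w, was at least 2.37-fold higher. The log2 differences of the others were 2.22 ± 0.14 for Slc40a1, 2.00 ± 0.10 for Trf, 1.43 ± 0.08 for Hp, 1.24 ± 0.11 for Slc11a1, 0.94 ± 0.10 for Hmox1 and 0.91 ± 0.10 for Tfrc, with adjusted p values from 7.99e-07 for Trf to 0.000126 for Tfrc. That of Fth1 was -1.05 ± 0.10 (adjusted p = 3.91e-05), and after quantile normalization -0.18 (adjusted p = 0.339). The processed signals of Fth1, before any scaling, were 157800 and 146900 in the DBA/2 and 177600 and 185000 in the B6 samples. Hpx and Hamp were not detected in either strain at 4 w. The neutrophil genes (10 of 11 higher), the monocyte genes (9 of 10 higher) and the erythroid genes (9 of 10 lower and 1 higher) also differed between the strains at this week, and their part in these values was not tested.

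The later change, taken from 0 w to the average over 4 w and 8 w, was compared between the strains. It was greater in DBA/2 than in B6 mice for 6 of the 10 genes and smaller for 1, where 6.48% of probes were higher and 6.73% lower. The differences in change were 3.63 ± 0.13 for Trf, 1.34 ± 0.12 for Hmox1, 1.09 ± 0.09 for Hp and 1.04 ± 0.14 for Slc11a1, and that for Tfrc was -1.42 ± 0.13. The calls of Cd163 and Hamp (adjusted p = 0.000509 and 0.0468) involve groups at background (both 0 w groups and B6 4 w for Cd163, every DBA/2 group and B6 4 w for Hamp), so that no size is given. Hamp entered this count only through its detection in B6 mice at 0 w and 8 w, and its call was lost in 14 of the 16 fits that left out a replicate. The comparison uses the B6 0 w and 8 w samples with high hepatocyte genes, and 7 of the 12 hepatocyte genes differed in the same direction. For Slc40a1, which rose in both strains, the difference in change was 0.20 ± 0.17 (adjusted p = 0.559), and for Fth1 0.21 ± 0.12 (adjusted p = 0.335). That of Hpx was not called (adjusted p = 0.0554), and was with the replicate number as a block (adjusted p = 0.0163), a term that took in the B6 samples as well.

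With normexp background correction of the pixel values in place of the deposited one, fewer of the 10 genes were called: 2, 4, 4 and 4 in the 4 DBA/2 weeks in order, 0 and 3 in B6 mice at 4 w and 8 w, 3 between the strains at 4 w and 0 for the difference in change. Calls over all 22939 probes fell too, to 147, 295, 618 and 2811 in the DBA/2 weeks and 85 and 778 in the B6 weeks. They fell to 1569 between the strains and 90 for the difference in change. Hp and Slc40a1 stayed called in all 4 DBA/2 weeks, in B6 mice at 8 w and between the strains at 4 w, while Trf, Tfrc, Fth1, Hpx, Hamp and Cd163 were called in none of the 8 comparisons. In this setting the array of DBA/2 9 w replicate 1 had 17 spots with a local background over 200 units, and those of B6 4 w replicate 1, DBA/2 0 w replicate 1 and 1 of the 2 arrays of B6 0 w replicate 2 had 2, 4 and 9. The 5th percentile of corrected signal on these 4 arrays was 72.3 to 354.4, against 55.5 to 56.7 on the others. With the median background of each array instead, chosen after seeing these values, 7, 7, 6, 10, 6 and 9 genes were called in the 6 comparisons with 0 w, 10 between the strains and 8 for the difference in change. Of the 22939 probes, 4919, 4336, 5951, 10505, 2909 and 17326 were called in those 6 comparisons. Between the strains 15316 were called, and 8076 for the difference in change. The 10 genes between the strains include Hpx and Hamp, which were not detected in either strain at 4 w.

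Other genes of the pathway were described from a list of 48, which holds ferritin, heme synthesis, iron import, heme export and Nrf2 target genes. All had a probe and 43 could be tested. In DBA/2 mice 11 were higher and 2 lower at 2 w, then 9 and 3 at 4 w, 15 and 2 at 8 w, and 24 and 2 at 9 w. The shares higher were 25.6%, 20.9%, 34.9% and 55.8% of the 43, and the shares lower 4.65%, 6.98%, 4.65% and 4.65%, beside the shares of all probes given above. In B6 mice 14 were higher and 9 lower at 4 w, and 9 higher and 13 lower at 8 w. That is 32.6% and 20.9%, and 20.9% and 30.2% of the 43, again beside the shares of all probes given above. With normexp correction by local background, 0, 0, 2 and 6 were higher and 0 lower in the DBA/2 weeks, 0 were called at B6 4 w, and 2 were higher and 3 lower at B6 8 w. The counts over all probes in this setting are given above. With quantile normalization 6 of the 43 were higher and 1 lower at DBA/2 2 w, 8 and 7 at B6 4 w and 9 and 7 at B6 8 w, and with the array median background 17 and 2 at DBA/2 2 w and 6 and 24 at B6 8 w. Of all probes, 1649 were higher and 1389 lower, 1381 and 1425, and 2661 and 1900 with quantile normalization. With the array median background they were 3261 and 1658, and 1681 and 15645. In the main fit the median log2 difference of the 43 genes was 0.08, 0.04, 0.23 and 0.55 in the DBA/2 weeks in order, and 0.12 and -0.15 in the B6 weeks.

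The 3 largest rises among them in DBA/2 mice at 4 w were those of Lcn2 (1.69 ± 0.30), Ltf (1.27 ± 0.26) and Fbxl5 (0.94 ± 0.17). Lcn2 binds the iron carriers of bacteria and Ltf binds iron, and both are granule proteins of neutrophils that the neutrophil list holds too, while Fbxl5 targets an iron regulatory protein for degradation. Among those that fell were Alad (-0.68 ± 0.07) and Urod (-0.35 ± 0.10), enzymes of heme synthesis, of which Urod was not called with the 75th percentile over all probes (-0.26). With normexp correction by local background none of these 5 genes was called, at 0.43 for Lcn2, 0.91 for Ltf, 0.47 for Fbxl5, -0.58 for Alad and -0.31 for Urod.

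Between the strains at 4 w, 12 of the 43 were higher in DBA/2 mice and 17 lower, which is 27.9% and 39.5% against 19.1% and 13% of all probes, with a median of -0.16 against 0.06. They were 3 and 9, with a median of -0.55, under normexp correction by local background, and 6 and 23, with a median of -0.49, under that by array median. Of all probes, 544 were higher and 1025 lower in the first of these settings, and 2410 and 12906 in the second. The median of all probes shifted by -0.36 and -0.22 in them. The largest differences toward DBA/2 mice were those of Ltf (2.74), Lrp1 (1.64), the receptor for heme-hemopexin complexes, and Spic (1.33), a transcription factor of red pulp macrophages. The difference of Spic changed sign, to -0.30 and -0.05, with the normexp correction by local and by array median background. The largest toward B6 mice were those of Blvrb (-2.47), which reduces biliverdin in red cells, Gclm (-2.39), a subunit of the enzyme of glutathione synthesis, and Cpox (-1.99), an enzyme of heme synthesis. At 0 w the DBA/2 and B6 means were 2.665 and 4.664 for Blvrb, -0.14 and 1.71 for Gclm and -2.32 and -1.48 for Cpox. They were -1.93 and -4.45 for Ltf, -0.78 and -1.61 for Lrp1 and -4.16 and -5.05 for Spic. All these gaps had the same direction at 0 w. The difference in change was 0.03 for Gclm (adjusted p = 0.909), 0.48 for Blvrb (0.0313) and -0.52 for Cpox (0.0376). Those of Ltf, Lrp1 and Spic were not called. The erythroid genes were lower in DBA/2 mice too at 4 w, and their part in these differences was not tested.

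**Figure D4:**
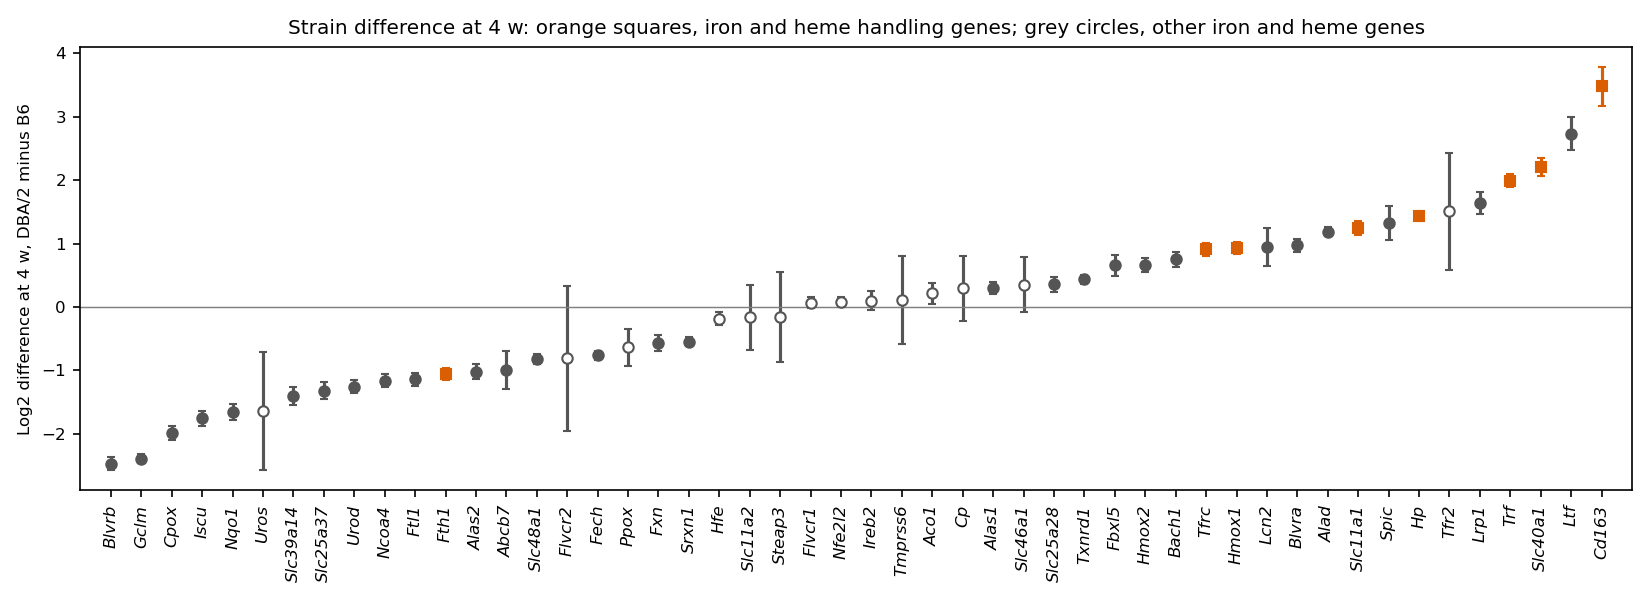
Log2 difference at 4 w, DBA/2 minus B6 (vertical axis, with SE), for the 8 iron and heme handling genes detected in at least 1 strain (orange squares) and 42 of the 43 other iron and heme genes tested (grey circles), in rising order, where filled symbols had an adjusted p under 0.05. Cd163, whose point is set against background signals in B6 mice, Ltf, Slc40a1 and Trf stand at the upper end and Blvrb and Gclm at the lower.

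The genes with the most similar pattern over the 18 samples were sought by Pearson's r among 21964 probes with a value in every sample, as a description of samples that share groups and slides. They were Metrnl (0.97), Tnfrsf1a (0.97) and Ms4a6d (0.96) for Hmox1, Pygl (0.98), Sema4a (0.97) and Anxa2 (0.97) for Hp, Ppt1, Gcnt2 and Aatk (all 0.99) for Slc40a1, and App (0.97), Svil (0.97) and Pira1 (0.96) for Slc11a1. For Tfrc they were Ermap (0.97), Gas5 (0.96) and Apol8 (0.96), and for Fth1 Fam214b (0.98), Tspan33 (0.97) and Ube2m (0.97). For Trf they were Arg1, Apoe (both 0.96) and Phyh (0.95). The lists of Hpx (Cpb2, Nnmt and Cfi, all 0.99) and of Hamp (Vtn and Pzp, both 0.99) hold probes detected on 5 of the 19 arrays. Cd163 had the least similar neighbors, Sdf2l1 (0.90), Pmp22 (0.89) and Bhlhe40 (0.88).

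The probes lie, on mm8, at chr8:77996380-77996439 for Hmox1, chr8:112464401-112464460 for Hp, chr7:105465611-105465670 for Hpx, chr6:124296085-124296144 for Cd163, chr1:45852956-45853015 for Slc40a1, chr1:74318794-74318853 for Slc11a1, chr16:32551916-32551975 for Tfrc, chr9:103073389-103074004 for Trf, chr19:10052040-10052099 for Fth1 and chr7:30651231-30651290 for Hamp. The probe of Tfrc was spotted 10 times, and the others 1 time each. Levels of different probes were not compared with each other.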

How the data were processed

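The authors labeled total RNA of blood leukocytes with Cy3 and used single-color Agilent G4122F arrays. The deposited scanner output gives a processed signal per spot, an intensity on a linear scale after background subtraction and detrending by Agilent Feature Extraction (9.5.3.1 per the labels). The authors' value table holds the same intensity and was used as an alternative.

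Outlier and control spots were left out, spots of a probe were averaged on the log2 scale, and the 75th percentile over the 11536 probes detected on all 19 arrays was subtracted. B6 0 w replicate 2 was hybridized to 2 arrays, which were averaged, leaving 18 samples in 10 groups. Genes were named by accession (24367 probes), symbol (6307) or synonym (2425), or as in the files (8075). A model with 1 mean per group was fitted across all probes (limma 3.58.1, R 4.3.3, 8 residual and 1.37 prior degrees of freedom) and tested on simulated data. Samples of the same replicate number shared a slide in DBA/2 mice of 0 w to 8 w. There the deviations from the group means correlated by 0.75 to 0.83 in the 6 pairs of groups. Over all 28 pairs of groups the correlation was -0.03 to 0.83, with 23 over 0.1. The main fit had no term for this pairing, so that its p values leave it out. The replicate block, an alternative, added 1 term for the replicate number over all 18 samples, those of B6 mice and of DBA/2 9 w included. B6 2 w and 9 w, with 1 sample each, are given as values. The members and lists were chosen with earlier results of these data known. All members were named, with the 3 genes most alike by Pearson's r and the 3 largest rises and falls of the other iron and heme list past the threshold in DBA/2 mice and between strains at 4 w. Some of the genes so chosen are not reported here. The alternatives were 2 normexp corrections with an offset of 50, quantile normalization, the 75th percentile over all probes, no filter or detection in 9 samples, outlier spots kept, replicate or slide block, each strain alone, either array alone of B6 0 w replicate 2, and each replicate left out. Those with the array median background and without B6 0 w and 8 w were added after seeing the data. Python 3.11.15 with numpy 2.4.6, pandas 2.3.3 and matplotlib 3.10.9 was used.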

Additional observations from a re-analysis of the deposited data

Results flagged for a closer look

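The change over 4 w and 8 w from 0 w differed between DBA/2 and B6 mice, by limma's test of the difference itself, for 7 of the 10 genes. The log2 difference in change, DBA/2 minus B6, was 1.34 for Hmox1, 1.04 for Slc11a1, -1.42 for Tfrc, 3.63 for Trf, 1.09 for Hp, 1.89 for Hamp and 3.28 for Cd163. Of all probes tested, 6.48% were higher and 6.73% lower in this comparison. The values of Hamp and Cd163 include groups in which the gene was not detected, and are no folds. Hamp was detected in no DBA/2 sample and entered the count only through B6 mice at 0 w and 8 w. Its call lends no support of its own, and was lost in most of the fits that left out a replicate. No group held enough samples to single out a sample that stands apart.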

How the results depend on the processing

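The 10 genes gave 67 log2 differences with a detected side, which were recomputed wherever a setting kept the samples and probes they need. With normexp on the local background, the counts of genes called were 2 at DBA/2 2 w, 4 at DBA/2 4 w and also 4 at DBA/2 9 w, 0 and 3 in B6 mice at 4 w and 8 w, 0 for the difference in change and 3 between the strains, and of 52 differences called, 32 lost their call, while calls over all probes fell too. Its offset of 50 units shrinks differences of dim probes by construction, and it shifted the median of all probes by 0.61 at DBA/2 9 w, -0.39 at B6 8 w and -0.36 between the strains. It reversed Tfrc (-0.57), Hamp (-0.25) and Cd163 (-0.75) in B6 mice at 8 w, Hpx in the difference in change (-0.040) and Cd163 between the strains (-0.081). With the array median background, 7 genes were called in DBA/2 mice at 2 w, where 4919 of the 22939 probes were called. Tfrc (-0.37), Hamp (-0.14) and Cd163 (-0.60) in B6 mice at 8 w were reversed. Quantile normalization reversed Fth1 at DBA/2 9 w (-0.28), at B6 8 w (0.19) and in the difference in change (-0.19), and Hmox1 at B6 4 w (0.080). The 75th percentile over all probes reversed Tfrc at DBA/2 8 w (0.047) and Hmox1 at B6 4 w (0.10). With the array median background the share of higher probes among those called was 9.70% at B6 8 w, 15.7% between the strains and 78.4% at DBA/2 9 w, from 51.7%, 59.4% and 48.3%. With no filter, 5 genes were called at B6 8 w, and with detection in 9 samples, 3 at B6 4 w, since the stricter filter leaves out Hpx, Hamp and Cd163. Hmox1 at B6 4 w was also reversed with array 2 alone of B6 0 w replicate 2 (0.027), and Cd163 at B6 8 w with array 1 alone (-0.21) and with the slide as a random block (-0.14). The cause of the other reversals was not tested.

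With each replicate left out in turn, the counts were 4 to 4, 7 to 7, 6 to 6 and 7 to 8 in the DBA/2 weeks in order, 4 to 6 and 5 to 8 in B6 mice at 4 w and 8 w, 6 to 8 for the difference in change and 8 to 9 between the strains. The values that changed sign were those of Hmox1 at B6 4 w (range -0.087 to 0.067), Cd163 at B6 8 w (-0.50 to 0.53) and Fth1 at DBA/2 4 w (-0.028 to 0.055). The fall to 5 at B6 8 w came without B6 8 w replicate 1 or B6 0 w replicate 2. With the replicate block the counts were 5, 7, 6 and 8 in DBA/2 mice, 6 and 8 in B6 mice, 8 for the difference in change and 8 between the strains, where Trf at DBA/2 2 w and Hpx in the difference in change were added and no other call changed. Without B6 0 w and 8 w, the DBA/2 counts stayed 4, 7, 6 and 8 and that between the strains 8.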

Other observations

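Hamp2, a second hepcidin gene of the mouse, has a probe of its own, which was detected on 18 of the 19 arrays, where that of Hamp was detected on 5. Its normalized log2 signals ran from -4.49 to -1.91 over the 18 samples. Its B6 level dropped by 1.39 from 0 w to 4 w and by 1.68 from 0 w to 8 w on the log2 scale (adjusted p = 0.0228 and 0.00688), whereas the log2 difference of Hamp between B6 mice of 8 w and 0 w was 0.21. In DBA/2 mice its 4 differences from 0 w had adjusted p values of 0.537 to 0.879. Hamp2 was chosen after its values were seen.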
